A study of Mus musculus with 18 samples.

Results

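The genes described here were the zinc finger genes numbered Zfp900 to Zfp999. They were chosen by symbol alone, as every row of the deposited gene table named Zfp9 followed by 2 further digits, and the rule found 65 of 21859 protein-coding genes. The rule reads the symbol and no measured value. The table came from E14 mouse embryonic stem (ES) cells analysed by transient transcriptome sequencing (TT-seq), in which a short pulse of 4-thiouridine (4sU) labels RNA while it is being made. All cells carried osTIR1, the plant F-box protein that lets auxin trigger protein decay. In 2 clones SPT16, a subunit of the histone chaperone FACT, also carried a C-terminal mini-AID degron and a V5 tag, and untagged cells served as the control line. Each of the 3 lines received either ethanol (EtOH, 0.1%) or the auxin 3-IAA for 24 h, followed by 5 min of 4sU labelling, which gave 6 groups of 3 libraries and 18 libraries in all. The labels give the 3-IAA dose as 500 nM, whereas the study's methods give the same figure in micromolar. The 2 tagged lines are single clones, and the study regards repeats of a clone as technical replicates.

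The levels below are the authors' pooled base mean (baseMean), 1 value per gene with no library named. In DESeq2 this is the mean over every library in the fit, control and depleted alike, but which of the 18 libraries the authors put into it is not stated in the sources used here. A baseMean is a mean of read counts divided by library size factors, so it counts reads and is not corrected for gene length. Values per library were not analysed here. For this reason no level has a replicate error, no comparison below has a test, the depth of single libraries is unknown, and nothing here measures an effect of SPT16 depletion. As a check of the cell type, the level per kb of annotated exon was compared between marker genes, since levels of different genes can be compared only per length. The 8 ES cell markers ran from 2222 (Klf4) to 12345 (Zfp42) normalised reads per kb. Markers of other types were far lower on this scale: the 4 primitive endoderm markers reached at most 117 (Gata4), the 4 trophectoderm markers at most 137 (Krt8), the 4 neural markers at most 50.7 (Sox1) and the 4 fibroblast or feeder markers at most 8.58 (Thy1). The neural markers Neurod1 and Tubb3 were listed at 0.

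C2H2 zinc finger proteins bind DNA through arrays of small zinc-holding fingers. Many of those in mammals start with a KRAB domain, which recruits the corepressor Trim28 and the H3K9 methyltransferase Setdb1, and they are known above all for silencing transposable elements in ES cells and early embryos. The genes lie in clusters that grew by repeated duplication, so neighbouring members are often close copies of each other. Because the authors kept only reads that align to 1 place in the genome, the copies bear directly on what could be counted. The share of each gene that is unique in the GRCm38 reference genome is therefore given beside its level. The genome of the E14 cells themselves was not examined.

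A match to the core of the KRAB A box was found in 60 of 65 translated coding sequences, and at least 1 C2H2 finger was found in 62. The median protein had 11 fingers and 486 residues, with lengths from 139 to 794 residues. Zfp974 had the most fingers (21), followed by Zfp997 (19). Zfp976 and Zfp945 shared the next place with 18 each. No finger matched in Zfp935, Zfp957 or Zfp972, whose longest coding sequences gave 150, 567 and 139 residues. The KRAB match was absent from Zfp956, Zfp957, Zfp972, Zfp974 and Zfp997. The name range thus held mainly KRAB zinc finger genes, but in some members 1 or both patterns found no match. A failed match to a fixed pattern does not show that the domain is absent. For the other 305 genes named Zfp and a number, a KRAB match was found in 118 of 304 with a coding sequence, and the median number of fingers was 10.

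Members also shared stretches of exon sequence. The following 50 bases are shown because no other exon window of that length occurs in more members: it was found in 11 of them, Zfp979, Zfp981, Zfp982 and Zfp985 to Zfp992, all on chromosome 4, and lay within coding sequence in all 11. In Zfp979 it sits at chr4:147613119-147613168 on the minus strand (GRCm38). The capitals mark the 15 bases that encode the conserved linker between adjacent fingers.
Shared exon window: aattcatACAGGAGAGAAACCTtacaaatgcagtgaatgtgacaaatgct
A single read that lay wholly within this window could not be placed in any 1 of the 11 genes.

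Promoters of 2 members are shown next, one chosen by level and one by CpG content, each a RefSeq window of 300 bases (GRCm38.p6) that runs from 250 bases before the start of transcription to 50 after it. Of the 65 members, 53 had an entry in the promoter table, and 49 had one whose start lay within 500 bases of the GENCODE 5′ end. Zfp961 had the most reads of all members, uncorrected for length, and also the most reads on the antisense strand upstream. Its window, chr8:71950816-71951115 on the plus strand, held 21 CpG dinucleotides, which are in capitals.
Zfp961: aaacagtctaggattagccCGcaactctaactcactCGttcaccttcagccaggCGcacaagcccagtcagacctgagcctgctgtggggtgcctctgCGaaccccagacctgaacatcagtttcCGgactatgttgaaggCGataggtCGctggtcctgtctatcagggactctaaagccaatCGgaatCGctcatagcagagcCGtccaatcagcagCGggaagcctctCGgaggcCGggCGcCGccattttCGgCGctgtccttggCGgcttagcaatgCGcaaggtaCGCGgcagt
Zfp970 had the lowest observed over expected CpG ratio among transcribed members, 0.17 against 0.83 for Zfp961. Its window, chr2:177464492-177464791 on the plus strand, held 3 CpG dinucleotides, again in capitals.
Zfp970: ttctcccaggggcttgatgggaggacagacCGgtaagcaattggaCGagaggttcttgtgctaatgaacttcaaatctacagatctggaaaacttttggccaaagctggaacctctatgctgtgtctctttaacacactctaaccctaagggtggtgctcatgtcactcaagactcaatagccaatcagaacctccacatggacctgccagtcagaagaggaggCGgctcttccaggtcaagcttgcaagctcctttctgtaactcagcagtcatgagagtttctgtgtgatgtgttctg

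Most members were transcribed. A pooled baseMean of at least 1 was reached by 61 of 65 members, against 17677 of the 21859 genes in the table. A level of 1000 or more was reached by 39 members, against 8156 of the 21859 genes. The median member had a baseMean of 1642, with quartiles of 507 and 3487. The median was 1250 for the other Zfp genes and 762 for all transcribed genes, meaning those that reached 1, and 45 of 65 members lay above the latter value. Per kb of annotated exon, the median level was 482 for the members, 265 for the other Zfp genes and 207 for all transcribed genes. The median exon length was 3039 bases in the members and 4724 in the other Zfp genes. Per kb of gene span the order was not kept: the median was 69.1 for the members and 74.7 for the other Zfp genes. Which of these lengths the counts cover is not stated in the sources used here. Together the members held 174488 normalised reads, or 0.312% of the sum over all genes.

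The 10 members with the most reads held 51.4% of that amount. In reads, Zfp961 on chromosome 8 led with a baseMean of 14450, above 95.1% of all transcribed genes. Zfp936 on chromosome 7 followed at 12966 and Zfp990 on chromosome 4 at 12011. Zfp984 (8912), Zfp980 (8399) and Zfp985 (7939), the next in order, all lie in the chromosome 4 cluster. Zfp975, a neighbour of Zfp936, had a baseMean of 6603. Zfp981 and Zfp992, again on chromosome 4, had 6501 and 5975, and Zfp951 on chromosome 5 had 5966. Of these 10 genes, 6 were therefore members of 1 cluster. Per kb of exon the leaders changed order: Zfp936 had 3960 normalised reads per kb, Zfp990 3434 and Zfp961 3334, followed by Zfp977 (3104) and Zfp984 (3060). On the same scale the pluripotency factor Nanog had 6596 and the corepressor Trim28 3459.

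At the other end, 2 members were listed at 0, Zfp953 and Zfp969. If all 18 libraries entered the mean with size factors of 1, a total of 3 reads would give a baseMean of 0.167. A value of 0 bounds the level only to about that, and only where reads could be placed and counted. Zfp969 had no unique window, as given below, so its 0 sets no such bound. Zfp965 (0.29) and Zfp968 (0.44) lay below 1. Zfp967 (1.14), Zfp966 (1.44) and Zfp957 (1.64) lay just above it. No member fell between these and Zfp935, at 32.5, followed by Zfp963 at 53.4. The low members were of different kinds. Zfp965 to Zfp969 had no unique 50-base window in their exons, nor anywhere in their gene span, so none of their low values bounds the level. In contrast, 95.6% of the exon windows of Zfp953 and 92.8% of those of Zfp957 were unique in the reference genome. Reads that match the reference could have been placed in these genes, but whether the E14 genome matches it there was not examined. Some exon bases of Zfp953 are also annotated to other genes on the same strand, and whether this lowered its count was not tested. Zfp957 also had neither a finger match nor a KRAB match, as given above.

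**Figure D1:**
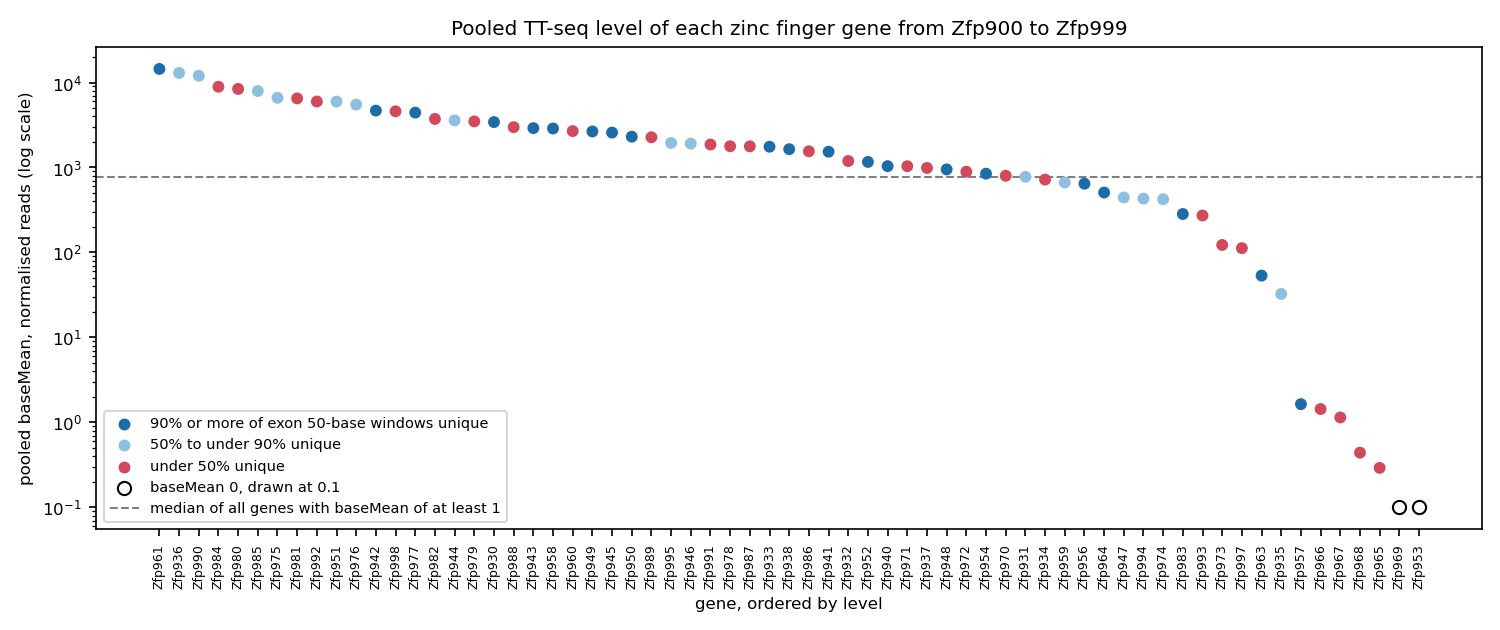
Pooled baseMean of the 65 genes on a log axis, ordered by level and coloured by the share of exon 50-base windows found once in the genome; open circles mark the 2 genes at 0. The genes run from 14450 (Zfp961) to 32.5 (Zfp935) with few steps, and 7 lie at 1.64 or below, of which the 5 with no unique window are Zfp965 to Zfp969.

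The members had fewer unique exon windows than other genes of their level. The genes of similar baseMean were the 10 non-members above and the 10 below each member with reads, 1217 in all, with a median baseMean of 1751. In the members a median of 70.0% of exon 50-base windows occurred once in the genome, with a range from none to all. The median was 99.4% in the other Zfp genes and 99.8% in the genes of similar baseMean. Under 50% of windows were unique in 28 of 65 members (43.1%), in 8 of 305 other Zfp genes (2.62%) and in 30 of the 1217 genes of similar baseMean (2.47%). Yet the less unique members were not, as a group, low. The 28 members with under 50% unique windows had a median baseMean of 1371 and 25 of them were transcribed, and the 22 with at least 90% had a median of 1588 and 21 were transcribed. Across all 65 members the rank correlation of level with uniqueness was 0.16. Per kb of exon the medians stood the other way round, at 611 and 339. All exon windows of Zfp967 and of Zfp969 recurred in another member, 84.1% of those of Zfp993 recurred in Zfp991, and 80.1% of those of Zfp960 recurred in Zfp97, which is not among the members. Levels of these genes are uncertain, since reads from shared sequence may not have been counted.

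**Figure D2:**
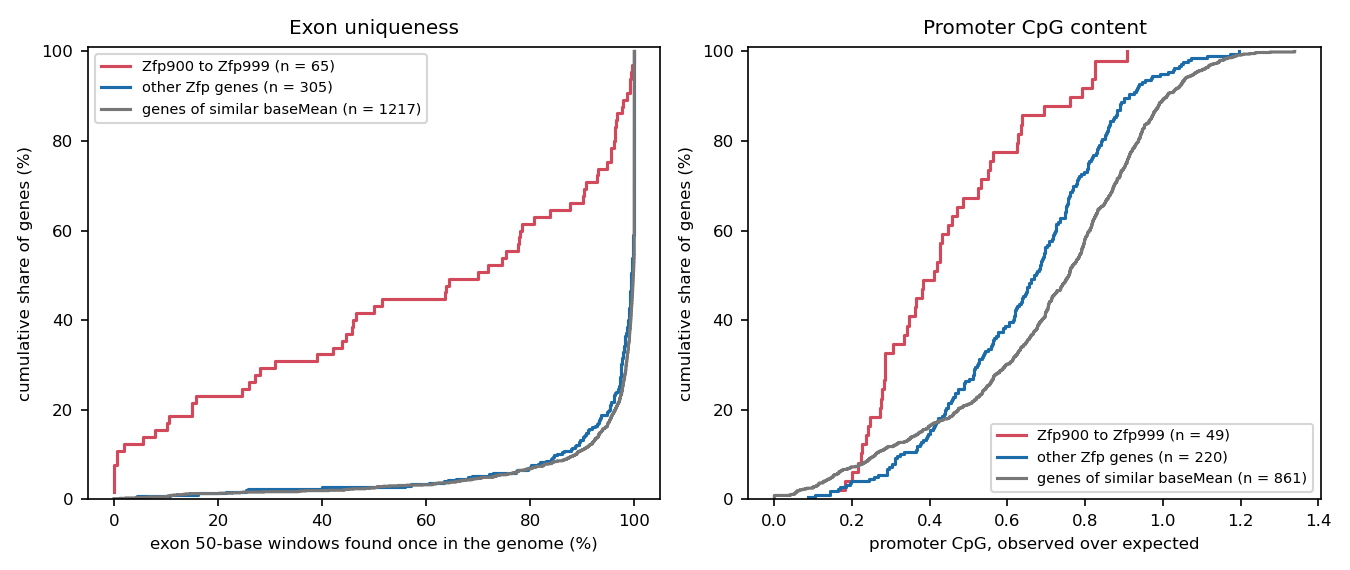
Cumulative share of genes by the share of exon 50-base windows found once in the genome (left) and by the observed over expected CpG ratio of the promoter window (right), for the Zfp900 to Zfp999 genes, the other Zfp genes and the genes of similar baseMean. The curve of the Zfp900 to Zfp999 genes lies to the left in both panels, with medians of 70.0% and 0.41.

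Where neighbours lay within 500 kb they were taken as a group. This placed 47 of the 65 members in 9 groups, with 18 members alone, over 12 chromosomes. The largest was the chromosome 4 group of 16 genes over 2.34 Mb (chr4:145510759-147848366), in the order Zfp990, Zfp980, Zfp986, Zfp987, Zfp992, Zfp981, Zfp993, Zfp989, Zfp991, Zfp988, Zfp978, Zfp982, Zfp985, Zfp979, Zfp984 and Zfp933. All 16 were transcribed, with a median baseMean of 3233 and a range from 272 (Zfp993) to 12011 (Zfp990). Per kb of exon their median was 1200, and the same 2 genes had the lowest and the highest level, 214 and 3434. Their summed level, 71186, was the highest of any group. A median of only 26.5% of their exon windows was unique. The share ran from 0.65% in Zfp989, which had a baseMean of 2266, to 63.6% in Zfp990, 74.5% in Zfp985 and 96.2% in Zfp933, at one edge of the group. Zfp982, which has been linked to ES cell identity, had 3725 reads with 31.0% of windows unique.

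The chromosome 17 group spanned 1.30 Mb and held 10 genes, in the order Zfp948, Zfp983, Zfp995, Zfp942, Zfp943, Zfp947, Zfp994, Zfp944, Zfp946 and Zfp945. It was the more readable of the large groups, with a median of 88.9% unique exon windows. All 10 genes were transcribed, at a median baseMean of 1926, from 283 for Zfp983 to 4669 for Zfp942, and the median per kb of exon was 451. Zfp942 and Zfp943 form a divergent pair whose 5′ ends lie 88 bases apart. Both were transcribed, at 4669 and 2905, and 90.2% and 95.5% of their exon windows were unique. Zfp947 (443) and Zfp994 (430) formed a lower stretch between Zfp943 and Zfp944 (3587).

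Chromosome 2 held members of very unlike levels. Zfp937, far from the rest, had a baseMean of 988 with 46.0% of exon windows unique. Zfp968, Zfp965, Zfp969 and Zfp966 formed a group over 0.559 Mb with a summed baseMean of 2.17 and no unique exon window. Further along, Zfp967 (1.14) paired with Zfp973 (123), of whose exon windows 0.65% were unique. Farther still, the group of Zfp970, Zfp972, Zfp971 and Zfp931 had levels of 799, 892, 1034 and 777, with 15.0% to 63.9% of windows unique. Within this last group the order of levels was not that of the unique share, since Zfp972 had 15.0% and Zfp931 63.9%. Some promoters were near-identical between genes of these groups. Windows were compared base by base without alignment, so copies shifted against each other were missed. The promoter windows of Zfp966 and Zfp967 were identical over all 300 bases, those of Zfp965 and Zfp971 were 97% identical, and those of Zfp973 and Zfp968 differed at 1 base. The last pair is shown because the baseMean of its genes was 123 and 0.44, or 45.2 and 0.14 per kb of exon. The windows lie at chr2:176670272-176670571 and chr2:175372186-175372485, both on the plus strand. The difference is G106A, counted from 1 at the 5′ end of the window with the base of Zfp973 first, and capitals mark the motif CCAAT on either strand.
Zfp973: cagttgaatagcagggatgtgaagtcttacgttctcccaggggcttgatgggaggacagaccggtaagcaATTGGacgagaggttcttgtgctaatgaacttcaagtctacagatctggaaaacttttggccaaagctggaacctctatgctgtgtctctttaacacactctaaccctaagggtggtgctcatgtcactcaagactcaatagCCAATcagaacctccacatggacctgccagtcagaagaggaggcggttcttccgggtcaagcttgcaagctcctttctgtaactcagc
Zfp968: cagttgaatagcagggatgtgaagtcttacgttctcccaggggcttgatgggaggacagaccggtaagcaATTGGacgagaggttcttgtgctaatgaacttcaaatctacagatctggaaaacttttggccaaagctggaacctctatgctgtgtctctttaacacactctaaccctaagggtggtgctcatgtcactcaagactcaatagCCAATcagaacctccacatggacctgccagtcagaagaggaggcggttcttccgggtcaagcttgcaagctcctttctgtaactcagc
The span of Zfp973 held 6.57% unique windows and that of Zfp968 none, so the 0.44 of Zfp968 does not bound its transcription. The 2 levels therefore cannot be compared as transcription, and the part of uniqueness in the counts was not tested. The shared promoter sequence is not limited to this pair. Most of the Zfp970 window printed above repeats the same sequence, shifted along. Its CCAAT matches lie 69 and 211 bases before the start, against 38 and 180 in Zfp973 and Zfp968. Zfp970 had a baseMean of 799, with 28.1% of its exon windows unique.

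**Figure D3:**
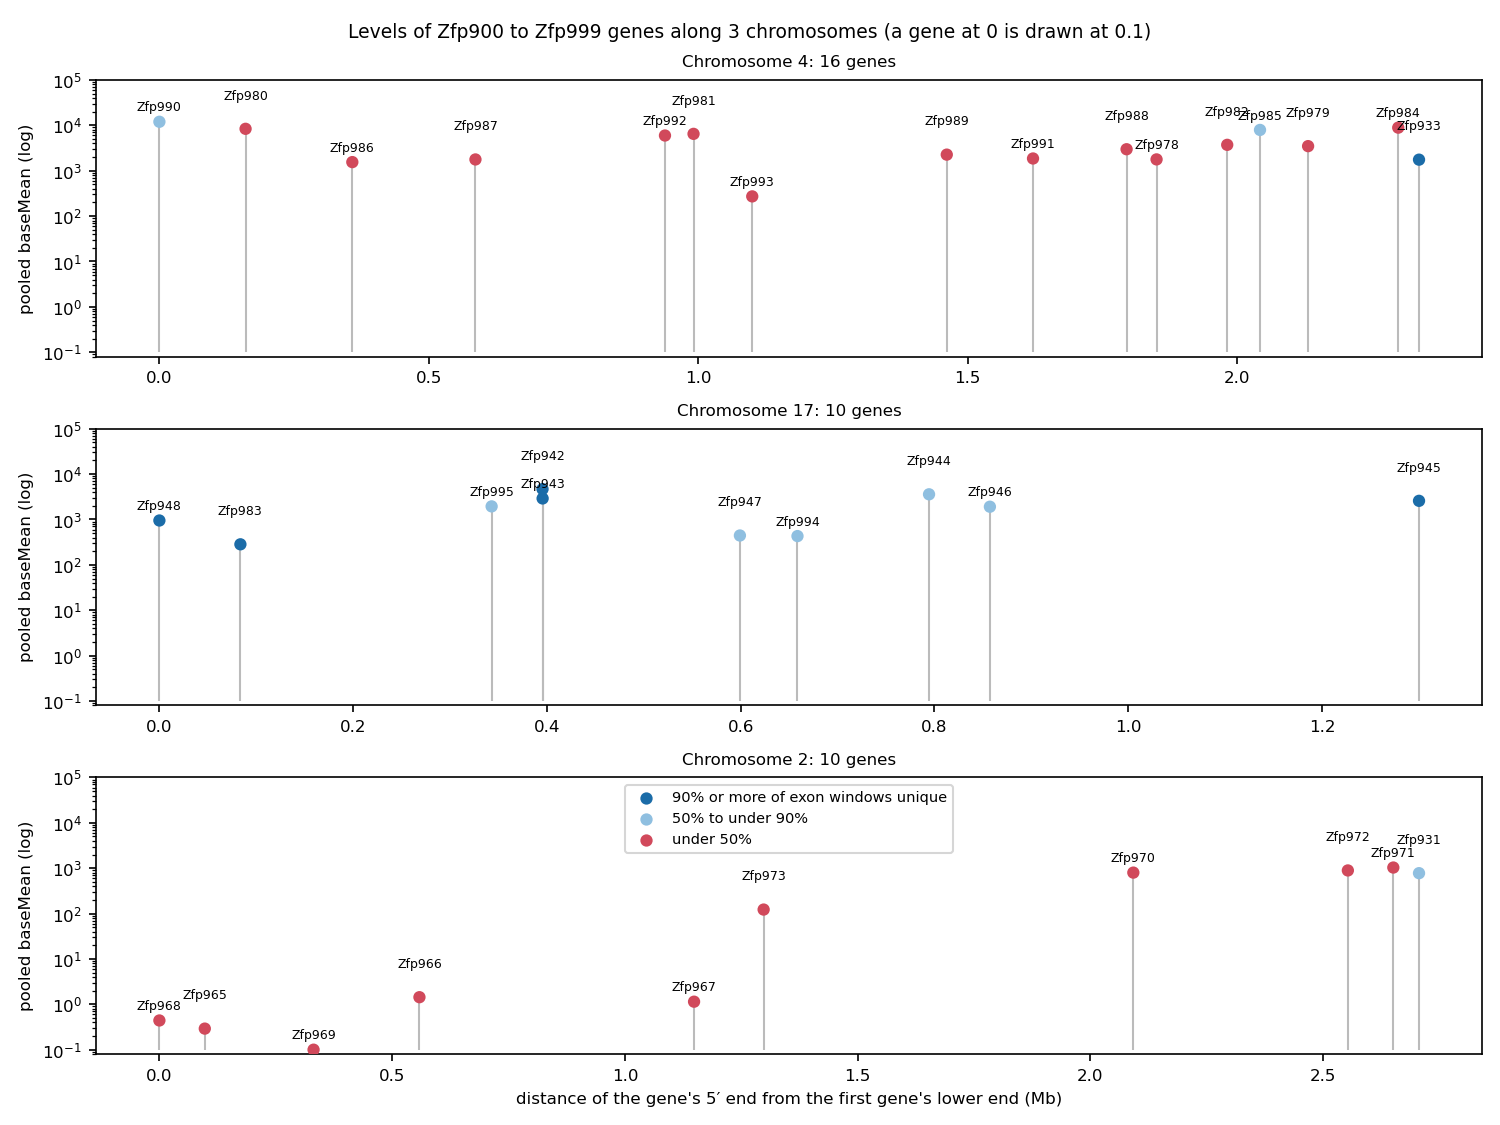
Pooled baseMean (log axis) against the distance of each 5′ end along the chromosome (Mb), for the 16 members on chromosome 4, the group of 10 on chromosome 17 and the 10 members at the far end of chromosome 2, coloured by unique exon windows. On chromosome 2 the genes with no unique window sit at 1.44 or below and those of the last group between 777 and 1034.

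The smaller groups differed widely in level. On chromosome 7, Zfp977, Zfp976, Zfp975 and Zfp936 lay within 0.612 Mb and were all highly transcribed, from 4423 to 12966, with 51.4% to 90.1% unique exon windows. On chromosome 8, Zfp930 (3421), Zfp964 (507) and Zfp963 (53.4) differed although 94.7% or more of their exon windows were unique, and per kb of exon they had 656, 66.7 and 23.2. On chromosome 13, Zfp998 had a baseMean of 4578 and Zfp997 one of 112, with 43.9% and 1.92% of windows unique. The other pair there, Zfp935 (32.5) and Zfp934 (720), overlaps on the same strand: all 1631 exon bases of Zfp935 are also annotated to Zfp934 or to the predicted gene Gm49359, and Zfp934 shares 25 exon bases with it, so the level of Zfp935 is uncertain. Overlap with exons of another gene on the same strand touched 9 members in all, with 937 bases of Zfp963 as the next largest. Of the members that stood alone, Zfp932, a repressor of endogenous retroviruses, had a baseMean of 1190 with 42.1% unique windows.

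Promoter upstream transcripts (PROMPTs) are short unstable RNAs made from the opposite strand just upstream of a gene's start, and many active promoters yield them. The PROMPT table, paired by symbol, listed 60 of the 65 members, all except Zfp953, Zfp954, Zfp981, Zfp997 and Zfp998. A PROMPT baseMean of at least 1 was found for 24 of these 60 (40%), and 9 were at 0. Among genes of similar baseMean, 580 of 972 listed (59.7%) reached that level, and 135 of 262 other Zfp genes (51.5%). The median PROMPT baseMean was 0.48 for the members, 1.90 for the genes of similar baseMean and 1.03 for the other Zfp genes. The highest PROMPTs were those of Zfp961 (81.3), Zfp977 (59.1), Zfp936 (41.9), Zfp933 (38.8) and Zfp975 (33.6), 3 of which belong to the chromosome 7 group. Only 3 of the 15 listed genes of the chromosome 4 group and 1 of the 10 in the chromosome 17 group reached 1. Zfp990, with a gene level of 12011, had a PROMPT level of 0.31. Zfp942 and Zfp943, whose upstream strands are each other's genes, were listed with PROMPT levels of 0.70 and 0.11.

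The sequence upstream was also less unique in the members, with a median of 72.5% of 50-base windows in the 1000 bases before the 5′ end, against 100% in genes of similar baseMean. When only members with at least 90% unique upstream windows were counted, 10 of 18 listed (55.6%) had a PROMPT of at least 1, and 529 of 887 such genes of similar baseMean (59.6%) did. Of the members with less unique upstream sequence, 14 of 42 (33.3%) did. At a PROMPT baseMean of at least 10 the shares did not differ in this way, but the counts were small. They were 3 of 18 members with unique upstream sequence and 7 of 42 with less unique (16.7% each). The share was 23.2% in the genes of similar baseMean with unique upstream sequence. Across the 60 members the rank correlation of PROMPT level was 0.47 with upstream uniqueness and 0.34 with the level of the gene. At 2 genes with few reads the PROMPT was large beside the gene: Zfp963 had 13.0 against 53.4, and Zfp957 had 1.99 against 1.64. Neither value is corrected for length, and PROMPT and gene levels may carry different size factors, so this comparison is rough. At Zfp963, 937 of 2299 exon bases are also annotated to another gene on the same strand. Whether this lowered its count was not tested.

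**Figure D4:**
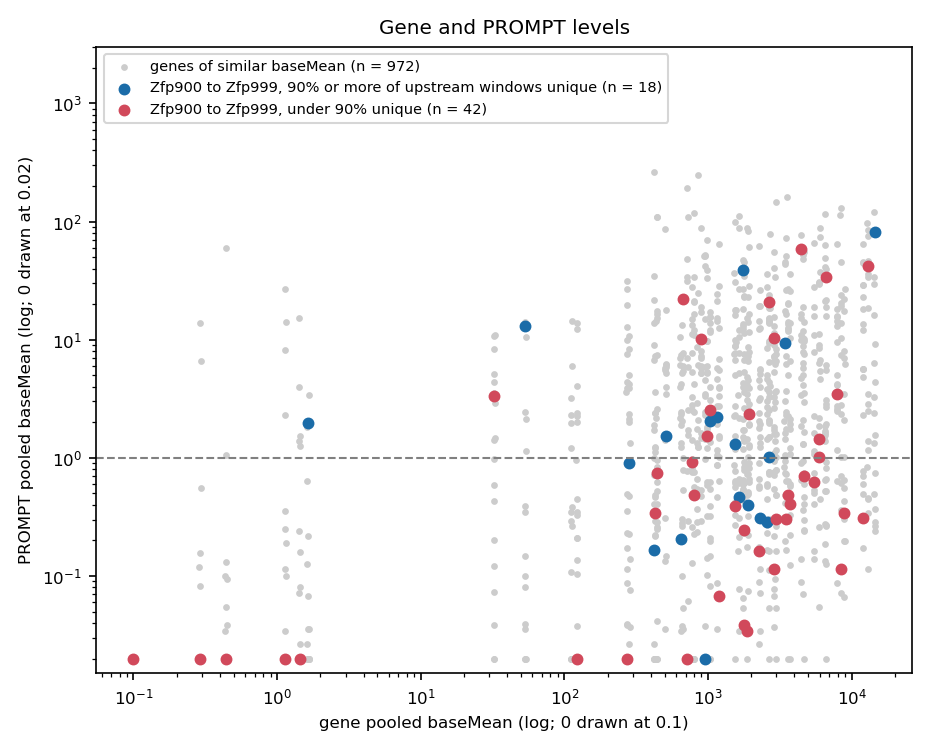
PROMPT against gene baseMean, both pooled and on log axes, for 972 genes of similar baseMean (grey) and the 60 listed Zfp900 to Zfp999 genes, coloured by whether at least 90% of the 1000 bases upstream was unique; the dashed line is a PROMPT baseMean of 1. Of the blue points 10 of 18 lie above the line, and of the red points 14 of 42.

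The promoters of the members held less CpG than those of genes of similar level, and less than those of all genes with a window. The median observed over expected CpG ratio was 0.41 in the 49 members with a window, 0.67 in 220 other Zfp genes and 0.76 in 861 genes of similar baseMean. Over all 14081 genes with a window chosen in the same way it was 0.64. Over all 32851 windows of the table it was 0.38, but the table holds several windows for some genes, so this is not a like comparison. A ratio of at least 0.6 was found in 11 members (22.4%), 61.4% of the other Zfp genes and 69.8% of the genes of similar baseMean. The share was 53.8% in all genes with a window. Among the members it was 38.1% where at least 90% of exon windows were unique and 10.7% in the rest. The highest ratios were those of Zfp944 (0.91) and Zfp942 (0.83), and the lowest those of Zfp970 (0.17) and Zfp931 (0.18). The 11 members with the higher ratio had a median baseMean of 1755, and the other 38 one of 1114. Levels thus overlapped widely: Zfp980 had a ratio of 0.25 and a baseMean of 8399, and Zfp974 a ratio of 0.76 and a baseMean of 423. Median GC content was 49.0% in the members, 60.3% in the genes of similar baseMean, 57.7% in all genes with a window and 52.7% over all windows.

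Motifs were searched in the same windows on both strands, letter for letter. CCAAT, the core of the CCAAT box that NF-Y binds, was found in 37 of 49 members (75.5%). It was found in 39.4% of genes of similar baseMean, 45.0% of other Zfp genes and 39.4% of all genes with a window. Over all 32851 windows in the table the share was 37.4%. The 37 members held 61 matches, of which 44 began 30 to 150 bases before the start. The TATA box core TATAAA was found in none of the 49, compared with 8.48% of genes of similar baseMean. It was found in 11.7% of all genes with a window and in 13.6% of all windows. The GC box core GGGCGG was found in 17 members (34.7%), against 61.1% of genes of similar baseMean. It was found in 51.2% of all genes with a window and in 35.7% of all windows. The E box CACGTG was found in 7 members (14.3%) and in 8.13% of genes of similar baseMean. Its share was 8.64% in all genes with a window and 7.15% in all windows. The YY1 core AAGATGG was found in 2 members (4.08%), against 6.39%, 6.68% and 6.34% in the same 3 sets. Since many members are copies of each other, their windows are not independent. CCAAT was found in 61.9% of the members with at least 90% unique exon windows and in 85.7% of the rest. A match is a matter of letters, and binding was not measured.

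The 16 genes listed here as partners of KRAB zinc finger proteins in silencing were all transcribed, as were 17677 of the 21859 genes in the table. The list was set with earlier results of these data known. All 16 had a baseMean above 1000, and 8156 of the 21859 genes reached that level. Per kb of exon their median was 1615 normalised reads, against 482 for the members. The lowest was Daxx, an H3.3 chaperone, with 399 per kb, and its partner Atrx, a chromatin remodeller, had 1339. Trim28, which the KRAB domain binds, was the highest with 3459 per kb, and Setdb1 had 1312 and its cofactor Atf7ip 743. Of the genes of the HUSH complex, Mphosph8 had 2074 per kb, Pphln1 1831 and Tasor 1286. The HP1 genes Cbx1, Cbx5 and Cbx3 had 2219, 2067 and 863. The remaining genes of the list, Morc3, Uhrf1, Dnmt1, Smarcad1 and Resf1, had 3315, 2662, 1648, 1581 and 1516. The members with the highest levels per kb, Zfp936 and Zfp990, thus lay beside Trim28 on this scale.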

How the data were processed

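TT-seq had been run on 18 libraries in 6 groups. Per the study's methods, Trim Galore was used for trimming, STAR for alignment to mm10 with unique alignments kept, featureCounts for strand-specific counts on Gencode vM25 features (the submitters' processing notes also name HTSeq), and DESeq2 for the tables. The deposited baseMean is a signal, the authors' mean of counts divided by size factors over the libraries of their fit, which the sources used here do not list. The other deposited columns hold the authors' own comparison (log2 fold change, its error, p-values) and were not used. The tables of distal regions, numbered only, were not used.

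Gene models came from GENCODE vM21 (GRCm38, the same build), and all 65 genes matched by identifier. Over all genes 21817 matched by identifier, 15 by symbol and 27 not at all. Coding sequences were read from the genome and translated (longest per gene, Biopython 1.88). A finger was C, 2 or 4 residues, C, 12 residues, H, 3 to 5 residues, H. The KRAB A box core was W, 2 residues, L, 3 residues, Q, 2 residues, L, Y or H, 2 residues, V, then M, T or L. Each 50-base window was counted on both strands of the assembled chromosomes; the read length is not given in the sources used here, and paired reads can be placed where 1 window cannot, so these shares are a guide. Promoters were RefSeq windows (GRCm38.p6). Scripts ran in Python 3.11.15 with pandas 2.3.3 and were tested on simulated data. Named genes were the 10 highest, those at 0, the 5 highest PROMPTs, the extremes in fingers and CpG ratio, and all in groups. Zfp932, Zfp935, Zfp957, Zfp960, Zfp963, Zfp974 and members that lacked a KRAB match or a PROMPT entry were also singled out after their values were seen. The symbol rule and the gene lists were set with earlier results of these data known, although the rule itself reads no measured value.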

Additional observations from a re-analysis of the deposited data

How the results depend on the processing

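The number of transcribed members, 61 of 65, became 63 with any reads and 58 at a baseMean of at least 10. It was 58 of the 62 members with a finger match and 56 of the 60 with a KRAB match. A limit of at least 50% unique exon windows, chosen after seeing the data, left out 28 of the 65 members. Of the members that met it, 36 were transcribed. Below the median of all transcribed genes lay 20 members, 18 per kb of exon and 20 per kb of span, and 29 lay below the median of genes with at least 10. Against all genes listed, whose median is lower by construction, the count was 12. A PROMPT was counted for 24 members at a baseMean of at least 1, for 51 with any reads and for 10 at 10 or more; for genes of similar baseMean the shares were 59.7%, 91.9% and 23.0%. With at least 90% unique upstream windows, again chosen later, the count was 10 of 18 listed members, and the share in genes of similar baseMean was 59.6%. That share was 60.8% with 5 neighbours on each side and 60.2% with 25. No paired analysis was possible because the tables hold 1 pooled value per gene and no value per library, and for the same reason no replicate could be left out. The pooled means also hide how far the groups and clones differed.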
